A study of Arabidopsis thaliana with 20 samples.

Results

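Small RNA was compared between the dxo1 mutant of Arabidopsis thaliana and Col-0, the laboratory line that serves as its wild type. The comparison rests on 4 small RNA libraries out of 20 in the series, chosen by their labels: 2 libraries of dxo1 and 2 of Col-0, all from unopened flower buds. Plants of both genotypes grew in 16 h of light and 8 h of dark and were about 4 weeks old when the buds were taken, with no other treatment or transgene labelled in either group. The dxo1 allele, and whether more than 1 line or pool of plants was used, are not given in the sources used here. RNA was extracted with Qiazol and a miRNeasy kit and read in 50 nt strand-specific runs. Each deposited table lists 1 model per gene, 27162 transcripts over the 4 tables, with raw counts for each read length from 19 to 25 nt on each strand. Counts on transcripts do not measure messenger RNA, so the labelled tissue could not be checked by marker genes here, and whether fewer cells of a type or less small RNA per cell lies behind a lower value cannot be told apart in bulk buds.

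DXO1 (AT4G17620) belongs to the DXO/Rai1 family, enzymes that take non-canonical caps such as NAD off the 5′ end of RNA. In plants, RNA that escapes normal decay can be copied by RDR6, an RNA-dependent RNA polymerase, into double-stranded RNA, which Dicer-like enzymes cut into 21 and 22 nt small interfering RNAs (siRNAs) from both strands. MicroRNAs, mostly 21 nt, come from one strand of a hairpin, and 24 nt siRNAs come mainly from transposons and repeats and guide DNA methylation. The comparison asks how siRNAs of each class on annotated transcripts differ in dxo1.

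The libraries differed in depth and in how alike they were. Counts of 19 to 25 nt came to 3625112 in dxo1 replicate 1 and 137603 in dxo1 replicate 2, against 1483736 and 4087476 in Col-0 replicates 1 and 2. A single 21-22 nt count in dxo1 replicate 2 was therefore worth 29.4 CPM (the count scaled to the library's 21-22 nt total, per 1e+06), and most transcripts had very few counts there. Levels in CPM below also carry the TMM factor, which adjusts each library's total. The Col-0 libraries differed by little more than counting error, with a chi-square per degree of freedom of 1.24 at 21-22 nt and 1.18 at 24 nt. The dxo1 libraries differed more, at 3.99 and 5.25. Nothing in the labels ties the libraries of a genotype to separate plants or cultures, so p-values measure the spread between these libraries, which may be technical.

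DXO1 itself set the dxo1 libraries apart. It held 14800 counts of 21-22 nt in dxo1 replicate 1 and 2 in dxo1 replicate 2, against 17 and 55 in Col-0. The groups overlap, since dxo1 replicate 2, at 44.9 CPM, lay below both Col-0 libraries at 70.3 and 83.3 CPM, while dxo1 replicate 1 stood at 15749 CPM. At the level of replicate 1, 701 counts would have fallen in replicate 2. Among 324 transcripts with at least 300 counts in the dxo1 libraries together, no other differed as far between them. The log2 fold change was 6.69 ± 1.58 (SE) with both libraries (edgeR quasi-likelihood test, adjusted p = 0.00669) and -1.17 without dxo1 replicate 1. Small RNA on DXO1 does not measure its messenger RNA and so does not check the dxo1 label. Because of this difference, counts of calls are also given without dxo1 replicate 1, and named calls that end without it are marked. RDR6 (AT3G49500) had 6 and 0 counts of 21-22 nt in dxo1 and 2 and 12 in Col-0, too few to test.

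**Figure D1:**
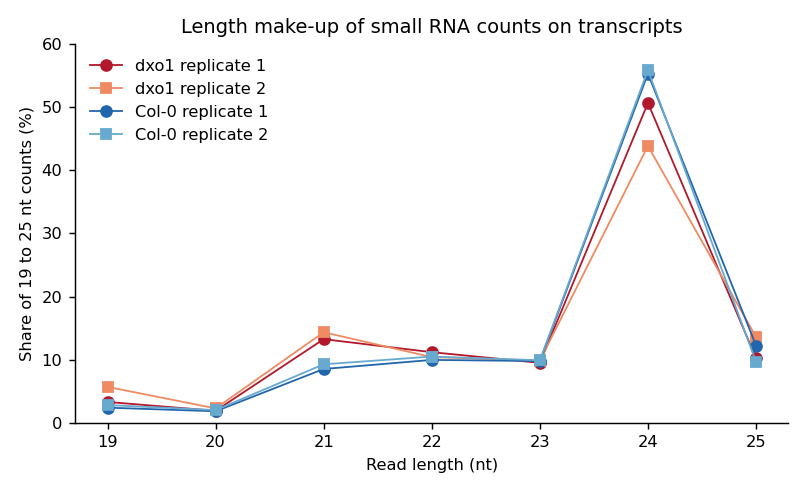
Share of 19 to 25 nt counts (y axis, percent) at each read length (x axis, nt), with 1 line per library: dxo1 in reds, Col-0 in blues. At 21 nt both dxo1 libraries (13.2 and 14.3%) lie above both Col-0 libraries (8.52 and 9.27%), and at 24 nt both lie below.

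The length make-up of the small RNAs differed between the genotypes mainly at 21 nt and 24 nt. Reads of 21 nt made up 13.2 and 14.3% of counts in dxo1, against 8.52 and 9.27% in Col-0. Reads of 24 nt made up 50.7 and 43.8% in dxo1, against 55.3 and 55.9% in Col-0. For both lengths the groups did not overlap, whereas the 22 nt shares did (11.2 and 10.4% in dxo1, 9.96 and 10.5% in Col-0). The ratio of 21-22 nt to 24 nt counts averaged 0.523 ± 0.058 in dxo1 and 0.344 ± 0.0137 in Col-0 (SD, n = 2 each). The ratio of 22 nt to 21 nt counts averaged 0.785 ± 0.0841 in dxo1 and 1.15 ± 0.0259 in Col-0 (SD, n = 2 each). An exact two-sided permutation test of 2 against 2 libraries cannot go below p = 0.333, the value it gave for the 19 nt, 21 nt and 24 nt shares and both ratios. The antisense share of 21-22 nt counts overlapped between the genotypes, at 45.4 and 46.3% in dxo1 and 46.7 and 46.2% in Col-0. The plot of length shares by library shows these differences. Strand was read from the 25 nt counts, of which 7.29 to 12.8% per library fell on the strand here called antisense, opposite to the transcript.

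**Figure D2:**
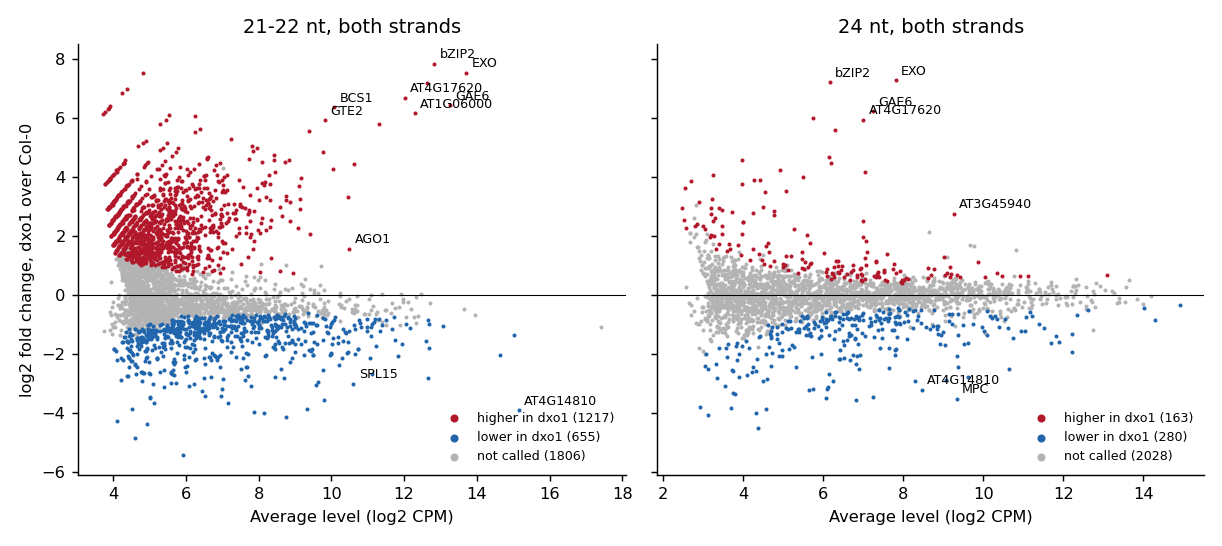
Log2 fold change of dxo1 over Col-0 (y axis) against average level in log2 CPM (x axis) for each transcript tested, at 21-22 nt (left) and 24 nt (right); red and blue points passed an adjusted p of 0.05. At 21-22 nt the rises reach further than the falls and include 1217 transcripts, while at 24 nt 163 rose and 280 fell.

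At 21-22 nt, transcripts with few reads in Col-0 had many more in dxo1, among them EXO, GAE6 and bZIP2. Of 3678 transcripts tested, 1872 passed (50.9%), 1217 higher in dxo1 (33.1%) and 655 lower (17.8%), with edgeR's quasi-likelihood test at an adjusted p of 0.05. Changes of at least 4-fold were mostly rises: 737 transcripts (20%) against 123 falls (3.34%). Over all transcripts tested, the median log2 fold change was 0.07. These counts lean on low levels. Of the 1217 rises, 866 passed the filter on low counts only through dxo1, and 119 had at least 10 counts in dxo1 replicate 2. Among 870 transcripts with a mean of at least 100 CPM, an alternative added after the data were seen, 216 rose and 137 fell. Without dxo1 replicate 1, 252 rose and 493 fell, and without Col-0 replicate 2 none passed, with 1315 at an unadjusted p under 0.05. Without Col-0 replicate 1, 960 rose and 256 fell. Every 21-22 nt call named here is therefore lost without Col-0 replicate 2, where the lone Col-0 library is assumed to vary like those of dxo1. The split of calls depended on scaling, with 65.0% of calls higher under TMM, 51.1% under DESeq2's size factors, 54.8% under upper-quartile factors and 89.0% under library totals alone. These moved the median log2 fold change of all tested transcripts to -0.21, -0.10 and 0.78 in that order.

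The 737 transcripts higher by at least 4-fold held 20.1 and 26.9% of all 21-22 nt counts in dxo1, against 1.04 and 1.01% in Col-0. Their selection used these counts, so the shares describe the set and test nothing. A few genes supplied most of the reads. The 10 transcripts of the set with the highest mean CPM in dxo1, DXO1 among them, held 50.8 and 56.0% of the set's 21-22 nt counts in dxo1.

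EXO (EXORDIUM), a cell wall-associated protein that promotes cell expansion, had 14114 and 1737 counts of 21-22 nt in dxo1, against 48 and 68 in Col-0. Both dxo1 libraries thus lay far above both of Col-0. In CPM this was 15019 and 39003 in dxo1 against 199 and 103 in Col-0, a log2 fold change of 7.53 ± 0.65 (SE, adjusted p = 5.58e-05, edgeR). GAE6, an epimerase that makes the sugar precursor of pectin, had 23549 and 618 counts in dxo1 and 59 and 139 in Col-0. Its log2 fold change was 6.43 ± 0.46 (SE, adjusted p = 4.15e-05, edgeR). It is the transcript with the most 21-22 nt reads of the set in dxo1 replicate 1. AT1G06000, which carries no name in the annotation used, had 11643 and 340 counts in dxo1 and 38 and 85 in Col-0, with a log2 fold change of 6.15.

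bZIP2, a basic leucine zipper transcription factor, had 7921 and 952 counts in dxo1 and 18 and 38 in Col-0, with a log2 fold change of 7.84 ± 0.59 (SE, adjusted p = 4.32e-05, edgeR). Nearly all of its reads were antisense, 97.9 and 98.8% in dxo1 and 94.4 and 100% in Col-0. AT2G18162, next to bZIP2 in locus number, showed the reverse: 7247 and 826 counts in dxo1 and 28 and 47 in Col-0, with 3.49 and 2.06% antisense in dxo1. The annotation used does not list AT2G18162, and how the counting treated reads that fit both loci is not known, so the pair is uncertain as separate sources. GTE2, a bromodomain protein, had 1643 and 100 counts in dxo1 and 10 and 18 in Col-0 (log2 fold change 5.93 ± 0.35 SE). Another bromodomain gene, GTE7, had 4389 and 263 counts in dxo1 and 19 and 70 in Col-0 (5.80). TIC, a regulator of the circadian clock, had 2515 and 174 counts in dxo1 and 36 and 98 in Col-0 (4.45). MYB4, a repressor of phenylpropanoid genes, had 500 and 56 counts in dxo1 and 11 and 28 in Col-0 (4.18). GTE7, TIC and MYB4, like the genes of the next paragraph, are named because they rank among the 25 transcripts of the set with the highest level in dxo1, a list drawn after the values were seen.

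PARVUS, a glycosyltransferase of xylan synthesis, had 927 and 41 counts in dxo1 and 11 and 25 in Col-0, a log2 fold change of 4.56. SOS5, a fasciclin-like arabinogalactan protein, had 733 and 46 counts in dxo1 and 21 and 64 in Col-0 (3.23). ADT4, an arogenate dehydratase of phenylalanine synthesis, had 1771 and 77 counts in dxo1 and 20 and 34 in Col-0 (4.83). The groups did not overlap for any of these genes. SLP2 (AT4G34980), a subtilisin-like protease (4.27), and the UDP-glycosyltransferases UGT71B1 (3.95) and UGT75B1 (3.68) were higher as well on the same log2 scale. BCS1 (AT3G50930), an AAA-type ATPase, differed more between the dxo1 libraries. It had 3348 and 16 counts in dxo1 and 6 and 17 in Col-0, with a log2 fold change of 6.36 with both dxo1 libraries and 3.44 without replicate 1. AT2G30620 differed in the other direction, with 74 counts in dxo1 replicate 1 and 88 in the far smaller replicate 2, against 7 and 13 in Col-0. Some large rises rest on very few reads in Col-0. AT4G17670, 4 genes along from DXO1 in the annotation, had 165 and 2 counts in dxo1 and 1 and 1 in Col-0, a pooled CPM ratio of 76.5 with a counting interval of 20.8 to 637; its call ends without dxo1 replicate 1. AT2G31940 had 77 and 5 counts in dxo1 and 0 and 1 in Col-0, a ratio of 75.1 with a counting interval of 13.1 to 3003. Its level in dxo1, unlike that of AT4G17670, was close in both libraries, at 81.9 and 112 CPM. These exact 95% intervals cover counting error only.

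**Figure D3:**
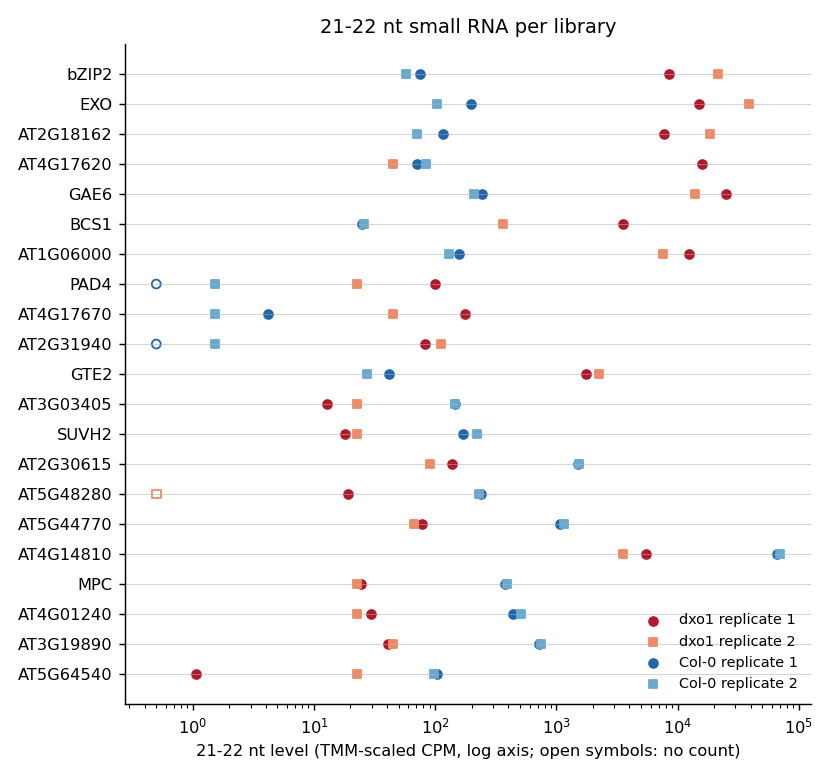
21-22 nt level per library (x axis, TMM-scaled CPM on a log axis, open symbols for no count) of DXO1 (AT4G17620) and the 10 largest rises and 10 largest falls among transcripts above the median level. Both dxo1 libraries (reds) stand apart from both Col-0 libraries (blues) in every row except DXO1, as the choice of rows required.

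Reads on these transcripts were mostly 21 nt long in dxo1 and came from both strands. Over the 737 transcripts, 21 nt reads made up 67.6 and 68.3% of the 19 to 25 nt counts in dxo1, against 23.6 and 25.1% in Col-0. The 22 nt reads made up 17.7 and 15.2% in dxo1 and 9.83 and 11.3% in Col-0. In Col-0 the few reads on the same transcripts were most often 25 nt long (41.6 and 36.2%, against 4.92 and 6.60% in dxo1). Since 21 and 22 nt counts chose the set, and 580 of its 737 transcripts passed the filter on low counts only through dxo1, these shares and those that follow describe the set and test nothing. The ratio of 22 nt to 21 nt counts was 0.262 and 0.222 in dxo1 and 0.416 and 0.449 in Col-0. Antisense reads made up 47.5 and 48.7% of the set's 21-22 nt counts in dxo1. Of 222 transcripts of the set with at least 100 counts in dxo1 replicate 1, 209 (94.1%) had between 25 and 75% antisense reads there, with a median of 48.6%.

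**Figure D4:**
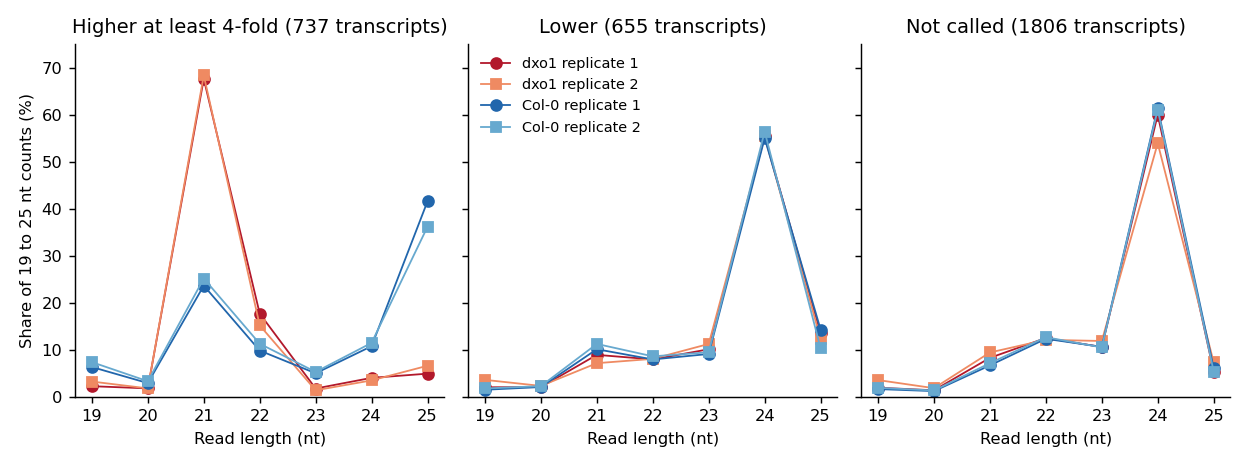
Share of 19 to 25 nt counts (y axis, percent) by read length (x axis, nt) in each library, summed over the 737 transcripts higher in dxo1 by at least 4-fold, the 655 lower ones and the 1806 not called. The raised set peaks at 21 nt in dxo1 (67.6 and 68.3%) and at 25 nt in Col-0, whereas the other sets peak at 24 nt in every library.

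By length alone, 56.5% of transcripts tested passed at 21 nt and 39.8% at 22 nt. At 19-20 nt 11.9% passed (8.22% higher in dxo1, 3.69% lower), at 23 nt 13.8% (5.62 and 8.14%) and at 25 nt 0.991% (0.566 and 0.425%).

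Fits of each strand gave similar counts of calls. On the sense strand, 646 of 2218 transcripts were higher in dxo1 (29.1%) and 294 lower (13.3%), 42.4% in all. On the antisense strand, 634 of 1791 were higher (35.4%) and 348 lower (19.4%), 54.8% in all. Without dxo1 replicate 1, 431 passed on the sense and 367 on the antisense strand. By edgeR 0 passed on the sense strand without Col-0 replicate 1 (834 at an unadjusted p under 0.05) or without Col-0 replicate 2 (663), and 553 passed on the antisense strand without Col-0 replicate 2. Both fits use the same libraries, so they are not independent. EXO had a log2 fold change of 7.77 in sense and 7.68 in antisense counts. GAE6 had 6.51 in sense and 6.73 in antisense counts, and bZIP2 had 7.20 in sense and 8.10 in antisense counts. In the plot of sense against antisense fold changes, most raised transcripts lie in the corner that is positive on both axes, which their call on the sum of both strands favours.

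**Figure D5:**
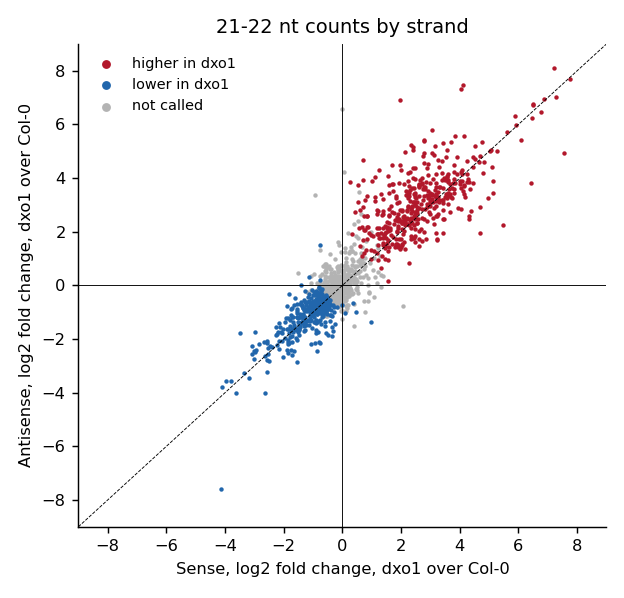
Log2 fold change of dxo1 over Col-0 in 21-22 nt counts on the sense (x axis) and antisense strand (y axis), for 1324 transcripts tested on both. Colours give the call on both strands together, red for higher in dxo1 and blue for lower; the dashed line marks equal fold changes.

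Falls at 21-22 nt could be tested only where Col-0 had counts, and those named lay above the median level by their choice. AT4G14810 had 5179 and 157 counts in dxo1 and 16096 and 46098 in Col-0, or 5511 and 3525 CPM against 66581 and 69842 CPM. The groups were far apart, with a log2 fold change of -3.91 ± 0.43 (SE, adjusted p = 1.44e-04, edgeR). Its reads were 99.7 to 100% antisense in every library, and 66.5 to 74.2% of them were 21 nt long. MPC (AT3G19350), an imprinted gene related to poly(A)-binding protein, had 23 and 1 counts in dxo1 and 91 and 259 in Col-0 (log2 fold change -3.97). SUVH2, a protein that binds methylated DNA and acts in RNA-directed DNA methylation, had 17 and 1 counts in dxo1 and 41 and 146 in Col-0 (-3.42). AT3G19890, without a name in the annotation, had 38 and 2 counts in dxo1 and 173 and 489 in Col-0 (-4.15). AT5G64540 had 1 count in each dxo1 library and 25 and 65 in Col-0, a pooled ratio of 0.0204 with a counting interval of 0.00243 to 0.0757, and its call ends without dxo1 replicate 1. The remaining large falls named by the rule, AT4G01240, AT5G44770, AT5G48280, AT2G30615 and AT3G03405, lay between -4.01 and -3.42 in log2 fold change. On MPC and on these genes except AT5G48280, reads in Col-0 were mostly 24 nt long. There 24 nt reads made up 69.0 to 81.0% of the 19 to 25 nt counts, so 21-22 nt reads were the smaller part.

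Phased siRNAs are made in register by RDR6 and DCL4 from transcripts cut by a microRNA. On both strands together, their sources gave no rise that passed the test at 21-22 nt with TMM factors. Of 22 tested members of that list and of targets of trans-acting siRNAs, 0 rose and 5 fell, where 33.1 and 17.8% of all transcripts did, with a list median of 0.00 against 0.07. By edgeR at an unadjusted p under 0.05 the counts were also 0 and 5, DESeq2 called 0 higher and 3 lower, and without dxo1 replicate 1 edgeR called 0 higher and 10 lower. Of these 22 members, 0 passed the filter on low counts through dxo1 alone, against 1122 of the 3678 transcripts tested and 866 of the 1217 rises. The shares of all transcripts are therefore not a like background. By strand, 0 of 21 rose and 2 fell in sense counts, and 1 of 20 rose and 4 fell in antisense counts (edgeR). Over all transcripts 29.1 and 13.3% did so in sense and 35.4 and 19.4% in antisense counts. At an unadjusted p under 0.05, 1 rose and 3 fell in sense counts. The pentatricopeptide repeat genes of the list were its richest siRNA sources. AT1G63150 had 6103 and 220 counts in dxo1 and 1280 and 3892 in Col-0, a log2 fold change of 0.04 ± 0.30 (SE, adjusted p = 0.931, edgeR), and its groups overlap. The falls were auxin genes. AFB3, an auxin receptor and miR393 target, had 149 and 8 counts in dxo1 and 153 and 535 in Col-0, a log2 fold change of -2.16 ± 0.27 (SE, adjusted p = 2.55e-04, edgeR). Its relatives AFB2 (-1.64) and TIR1 (-0.96) fell too. ARF4, an auxin response factor cut by trans-acting siRNAs, had 1914 and 62 counts in dxo1 and 1200 and 3433 in Col-0 (-1.54), and ARF3 had 87 and 5 in dxo1 and 44 and 148 in Col-0 (-1.11). The calls on ARF3 and TIR1 end without dxo1 replicate 1, with DESeq2 and with library totals, under which ARF3 stood at -0.40 and TIR1 at -0.27. Reads on ARF4 were 91.0 to 94.6% antisense in all libraries. The TAS loci, precursors of trans-acting siRNAs, were not analysed here.

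Transcripts that microRNAs target changed both ways: 6 of 35 tested rose (17.1%, against 33.1% of all transcripts) and 6 fell (17.1%, against 17.8%) at 21-22 nt, with a median of -0.17. Of the 35, 1 passed the filter on low counts through dxo1 alone, so the shares of all transcripts are not a like background here either. DESeq2 called 0 higher and 2 lower, and without dxo1 replicate 1, 1 rose and 11 fell by edgeR. Antisense reads dominated the falls. SPL15, a flowering-time factor targeted by miR156, had 371 and 8 counts in dxo1 and 622 and 1810 in Col-0, a log2 fold change of -3.02 ± 0.35 (SE, adjusted p = 1.74e-04, edgeR). Its reads were 99.7 to 100% antisense and 88.9 to 97.1% 21 nt long. ARF17, a miR160 target, had 290 and 10 counts in dxo1 and 144 and 452 in Col-0 (-1.16), with 90.0 to 97.8% antisense. The call on ARF17 ends with library totals, with no filter on low counts and without Col-0 replicate 1. Its log2 fold change ran from -1.90 to -0.41 across the alternatives. By strand, 8 of 28 members rose and 8 fell on the antisense strand, while on the sense strand 7 of 27 rose and 0 fell (edgeR, with 2 lower at an unadjusted p under 0.05 and 0 lower by DESeq2), where 35.4 and 19.4% of all transcripts did so on the antisense strand and 29.1 and 13.3% on the sense strand. AGO1, the main microRNA effector and itself a target of miR168, rose. It had 2181 and 91 counts in dxo1 and 177 and 500 in Col-0, or 2321 and 2043 CPM against 732 and 758 CPM, a log2 fold change of 1.56 ± 0.25 (SE, adjusted p = 0.00102, edgeR). The call on AGO1 ends with DESeq2, with no filter on low counts and without Col-0 replicate 1. TCP2, a leaf-development factor targeted by miR319, had 498 and 15 counts in dxo1 and 38 and 154 in Col-0 (1.23, and 0.32 without dxo1 replicate 1, where it does not pass).

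Of the small RNA pathway, 6 of 26 genes were tested, with a median of -0.10. Of these, 2 rose (33.3%, against 33.1% of all transcripts) and 2 fell (33.3%, against 17.8% of all transcripts). Of the 6, 0 passed the filter on low counts through dxo1 alone, so the shares of all transcripts are not a like background. DESeq2 called 0 of them (2 higher and 2 lower by edgeR at an unadjusted p under 0.05), and without dxo1 replicate 1, 1 rose and 1 fell by edgeR. Beside AGO1, AGO7, the effector of one class of trans-acting siRNAs, had 40 and 3 counts in dxo1 and 6 and 11 in Col-0, or 42.6 and 67.4 CPM against 24.8 and 16.7 CPM. SE, a partner of DCL1 in microRNA processing, had 10 and 1 in dxo1 and 6 and 22 in Col-0 (-1.45), and NRPD1, the largest subunit of RNA polymerase IV, had 29 and 2 in dxo1 and 18 and 34 in Col-0 (-0.88). The calls on AGO7, SE and NRPD1 end without dxo1 replicate 1 and with DESeq2. Among the alternatives that leave out no library, AGO7 passes in 1 of 8, SE in 3 of 7 and NRPD1 in 4 of 8. Of 18 genes of RNA decay, 3 were tested and 1 fell (33.3%, against 17.8% of all transcripts). It was UPF1 of nonsense-mediated decay, with 56 and 3 counts in dxo1 and 25 and 70 in Col-0 (-0.80). The call on UPF1 passes in 2 of 9 alternatives of scaling, test, filter or read length, and ends without dxo1 replicate 1. Of 4 genes known as siRNA sources in decay mutants, 3 were tested and 2 rose (66.7%, against 33.1% of all transcripts). A list of 3 members is too small to set its share apart from that of all transcripts. NIA2, a nitrate reductase, had 34 and 2 counts in dxo1 and 3 and 8 in Col-0 (1.56), and SMXL4 had 48 and 1 in dxo1 and 1 and 10 in Col-0 (2.00). Both passed the filter through dxo1 alone, and neither passes without dxo1 replicate 1.

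Among nuclear genes for photosynthesis, 7 of 24 tested rose and 4 fell at 21-22 nt (median -0.23), shares of 29.2 and 16.7% against 33.1 and 17.8% of all transcripts. Of the 24, 1 passed the filter on low counts through dxo1 alone, against 866 of the 1217 rises of all transcripts. The shares of all transcripts are therefore not a like background for this list. DESeq2 called 1 higher and 0 lower, and without dxo1 replicate 1, 1 rose and 1 fell by edgeR. The rises included all 5 LHCB1 genes, which encode the main light-harvesting protein of photosystem II, along with RBCS1A and PSBX. LHCB1.2 had 214 and 6 counts in dxo1 and 12 and 26 in Col-0 (log2 fold change 2.29 ± 0.31 SE, adjusted p = 4.00e-04, edgeR). Antisense reads made up 50.9 and 50.0% of them in dxo1, against 8.33 and 15.4% in Col-0, the 50.0% being 3 of 6 counts. Other copies differed: LHCB1.5 had 29.6 and 8.33% antisense in dxo1 and 7.69 and 9.72% in Col-0, and LHCB1.4 had 81.7 and 100% in dxo1 and 100 and 50.0% in Col-0. RBCS1A, a small subunit of Rubisco, had 45.2 and 40.0% antisense in dxo1 and 8.00 and 13.2% in Col-0, and a log2 fold change of 1.04. The calls on RBCS1A and PSBX end without dxo1 replicate 1. On the antisense strand 8 members were tested, of which 7 rose and 1 fell, and on the sense strand 22, of which 5 rose and 3 fell. Over all transcripts 35.4% rose and 19.4% fell on the antisense strand, and 29.1% rose and 13.3% fell on the sense strand, where the photosynthesis shares were 22.7 and 13.6%. In Col-0, antisense counts of 19 to 25 nt were 2 and 5 on LHCB1.2 and also on LHCB1.4. They were 5 and 6 on LHCB1.1 and 4 and 12 on LHCB1.5. All of these lie under the antisense filter of 39.9 CPM, so an antisense rise was the outcome the filter favoured for these genes. The LHCB1 genes are near-identical copies, so their counts are uncertain one by one, and the calls on the 4 of them named by the rule (LHCB1.4 at 3.63, LHCB1.2, LHCB1.1 at 2.15 and LHCB1.5 at 1.83) end without dxo1 replicate 1.

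Of 16 genes for salicylic acid and defence, 3 passed the filter on low counts, and they did so through dxo1 alone, so a rise was the outcome the filter favoured. Each had 1 count in dxo1 replicate 2, worth 29.4 CPM before the TMM factor and so over the filter of 18.5 CPM. All 3 passed as higher, where 33.1% of all transcripts did, and all 3 calls end without dxo1 replicate 1. EDS1, a lipase-like regulator of immunity, had 196 and 1 counts in dxo1 and 3 and 7 in Col-0, a log2 fold change of 4.02, or 0.63 without dxo1 replicate 1. WRKY46, a defence transcription factor, had 286 and 1 in dxo1 and 1 and 9 in Col-0 (4.47, or 0.70 without it). PAD4, the partner of EDS1, had 93 and 1 in dxo1 and 0 and 1 in Col-0, a pooled ratio of 86.1 with a counting interval of 15.1 to 3437. Of the tapetum and pollen wall list, 4 of 21 genes were tested and 1 passed as higher (25%, against 33.1% of all transcripts). This was LAP6, a polyketide synthase of pollen wall formation, with 22 and 3 counts in dxo1 and 0 and 2 in Col-0. Of 11 late pollen genes 9 were in the tables, none of them with enough counts to test.

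At 24 nt a smaller share of transcripts passed. Of 2471 tested, 443 passed (17.9%), 163 higher in dxo1 (6.6%) and 280 lower (11.3%), with edgeR's quasi-likelihood test at an adjusted p of 0.05. Changes of at least 4-fold came to 61 falls (2.47%) and 50 rises (2.02%). Scaling by library totals gave 123 higher and 424 lower. Without dxo1 replicate 1, 49 rose and 175 fell, and without dxo1 replicate 2, 481 rose and 506 fell. Without Col-0 replicate 1, 45 rose and 89 fell, and without Col-0 replicate 2, 12 rose and 25 fell. On the sense strand 137 of 1925 rose (7.12%) and 219 fell (11.4%), 18.5% in all. On the antisense strand 114 of 1844 rose (6.18%) and 202 fell (11%), 17.1% in all. By edgeR, 0 passed on the sense strand without Col-0 replicate 1 (236 at an unadjusted p under 0.05) or without Col-0 replicate 2 (195), and 0 on the antisense strand without Col-0 replicate 2 (178). Without dxo1 replicate 2, 763 passed on the sense and 778 on the antisense strand, and without dxo1 replicate 1, 200 and 188. EXO, GAE6 and bZIP2 were among the largest rises here too. EXO had 581 and 89 counts of 24 nt in dxo1 and 3 and 6 in Col-0 (log2 fold change 7.27 ± 0.88 SE, adjusted p = 0.00375, edgeR). GAE6 had 694 and 15 in dxo1 and 5 and 10 in Col-0 (6.22 ± 0.29 SE). bZIP2 had 256 and 28 in dxo1 and 1 and 2 in Col-0, a pooled ratio of 157 with a counting interval of 53.3 to 767. On these transcripts 24 nt reads were a small part of the total in dxo1: 3.76 and 4.66% on EXO, 2.73 and 2.22% on GAE6 and 3.03 and 2.75% on bZIP2. AT5G40020 had 350 and 8 counts of 24 nt in dxo1 and 2 and 10 in Col-0 (5.58) and was too low at 21-22 nt to test. AT3G45940, the highest-level transcript among the named rises, had 2296 and 63 in dxo1 and 128 and 389 in Col-0 (2.75 ± 0.23 SE, adjusted p = 0.0011, edgeR).

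Among the 24 nt falls, MPC had 183 and 2 counts in dxo1 and 834 and 2409 in Col-0 (log2 fold change -3.52 ± 0.31 SE, adjusted p = 0.00125, edgeR), next to its fall at 21-22 nt. AT4G01240 had 228 and 3 in dxo1 and 678 and 1903 in Col-0 (-2.88). AT1G26380 had 115 and 3 in dxo1 and 402 and 1028 in Col-0 (-2.91). MTR4, the helicase of the nuclear exosome, had 204 and 10 in dxo1 and 217 and 607 in Col-0 (-1.20), 98.5 to 100% of them antisense; without dxo1 replicate 1 it does not pass. Of the phased siRNA list, 3 of 15 tested rose and 1 fell at 24 nt, where 6.6 and 11.3% of all transcripts did (median 0.50 against -0.04 for all). DESeq2 called 0 of them (6 higher and 3 lower by edgeR at an unadjusted p under 0.05), and each of the 4 calls ends without dxo1 replicate 1. AT1G63150 had 206 and 7 counts in dxo1 and 43 and 115 in Col-0 (1.16), and AFB3 had 22 and 0 in dxo1 and 33 and 71 in Col-0 (-1.51). Of 12 photosynthesis genes tested, 0 passed at 24 nt by edgeR or DESeq2 and 1 was lower at an unadjusted p under 0.05; LHCA2, of highest level, had 820 and 405 CPM in dxo1 and 998 and 1070 CPM in Col-0 (-0.64, adjusted p = 0.172, edgeR). Without dxo1 replicate 1, 1 of the 12 passed as lower, and LHCA2 stood at -1.37.

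Whether 21-22 nt and 24 nt counts responded differently was tested directly, with both classes of each library in 1 fit and the library as a block. Of 5859 transcripts, 0 passed for a difference between the classes by edgeR's quasi-likelihood test (0% called), with 269 at an unadjusted p under 0.05, and DESeq2 called 1. Under other scalings 210 to 1135 passed, and their direction turned with the scaling: 139 higher and 71 lower at 21-22 nt relative to 24 nt under DESeq2's size factors, 60 and 1075 under upper-quartile factors. AT3G19890 had the lowest p, with a log2 fold change of -4.15 at 21-22 nt and -0.85 at 24 nt (adjusted p = 0.325 for the difference). Among the largest 21-22 nt rises that were also tested at 24 nt, log2 fold changes at 21-22 nt and 24 nt were 7.84 and 7.20 for bZIP2, 7.53 and 7.27 for EXO, and 6.43 and 6.22 for GAE6. They lay further apart, at 7.17 and 4.46 for AT2G18162, 6.36 and 4.24 for BCS1, 6.15 and 4.67 for AT1G06000 and 5.93 and 3.90 for GTE2, none of which passed for the difference (adjusted p = 0.918 for each, edgeR; unadjusted p = 0.0158, 0.0192, 0.0398 and 0.0985 in that order). The 24 nt call on AT1G06000 ends without dxo1 replicate 1.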

How the data were processed

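Small RNA libraries of unopened flower buds were deposited as raw counts per transcript model, strand and read length from 19 to 25 nt. The submitters' processing notes name cutadapt, STAR 2.4.2a, HTSeq and the TAIR10 build without roles; which tool made the small RNA tables, and how reads with several matches were counted, was not given in the sources used here. Reads that match several copies could be counted on each or on none, which affects gene families most.

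From the deposited counts, 21 and 22 nt, and separately 24 nt, were summed per transcript over strands and per strand, with 0 for a transcript that a table does not list. Columns named f were taken as sense and r as antisense, because 25 nt counts lay mainly on f in every library. Each class was analysed in R 4.3.3 with edgeR 4.0.16: filterByExpr with a minimum count of 10, TMM factors, the quasi-likelihood F test on genotype with 2 residual degrees of freedom, and Benjamini-Hochberg adjustment over all transcripts tested. The minimum count acted as a CPM level, 18.5 at 21-22 nt and 7.53 at 24 nt, which 1 count in dxo1 replicate 2 exceeds. Standard errors were taken from the fold change and F (log2 fold change divided by root F). Rises and falls refer to an adjusted p of 0.05, and tests are two-sided. Class sums have totals of 34049 to 885643 (21-22 nt) and 60330 to 2283312 (24 nt) counts per library. The fits of 21-22 nt and 24 nt over both strands, and of the difference between these classes, were checked on simulated counts with known fold changes. The simulated libraries of both genotypes had the same dispersion, so the check does not cover the wider spread between the dxo1 libraries. The fits of single strands and of other read lengths were not checked in this way. Identifiers were matched to the TAIR10.1 RefSeq table for 26675 of 27162 transcripts, which gives symbols. Its coordinates were used only to order the genes around DXO1, and no sequences were used here.

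The transcripts compared and the gene lists were chosen with earlier results of these data known. Named transcripts are RDR6 and DXO1, then in each class the 10 strongest rises and 10 strongest falls among passing transcripts above the median level whose groups do not overlap, and from each list as many as 4 members that passed, by p, or the 2 with most counts where none did; other names were chosen after their values were seen, as said beside them. DESeq2 1.42.0, other scalings, no filter, a replicate block and leaving out each library were alternatives.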

Additional observations from a re-analysis of the deposited data

Results flagged for a closer look

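Read lengths outside the 21-22 nt and 24 nt classes also held transcripts that passed edgeR's quasi-likelihood test. They are listed because these lengths were not part of the comparison. At 19-20 nt, 116 of 1411 transcripts were higher in dxo1 (8.22%) and 52 lower (3.69%). At 23 nt, 89 of 1584 were higher (5.62%) and 129 lower (8.14%). At 25 nt, 20 of 3531 were higher (0.566%) and 15 lower (0.425%). With 2 libraries a group, no group was large enough to look for single outlying libraries by a rule.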

How the results depend on the processing

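The replicate number was not known to mark shared plants. Across transcripts, the differences between replicates of both genotypes correlated at -0.07 (21-22 nt), -0.03 (24 nt) and -0.12 (all lengths). With dxo1 replicate 2 so shallow, these values cannot tell whether libraries of the same number share plants or a batch. With the replicate block, calls at 21-22 nt came to 1414 on both strands, 402 sense and 733 antisense, and at 24 nt to 282, 95 and 36. DESeq2 called 428, 218 and 310 at 21-22 nt (both strands, sense, antisense) and 84, 46 and 34 at 24 nt. With no filter on low counts, 593, 0 and 0 passed at 21-22 nt (1274 sense and 954 antisense at an unadjusted p under 0.05), and 336, 113 and 219 at 24 nt. Leaving out 1 library gave 0 to 2064 calls at 21-22 nt on both strands, 0 to 1155 sense and 367 to 1079 antisense; at 24 nt it gave 37 to 987 on both strands, 0 to 763 sense and 0 to 778 antisense. The lowest values came without Col-0 replicate 2 and, for both sense fits, without either Col-0 library, where the lone Col-0 library is assumed to vary like the dxo1 libraries; for 21-22 nt antisense the lowest came without dxo1 replicate 1. The cause was not tested. For the difference between the size classes, 0 transcripts passed without any 1 library, 4 with no filter, 1 by DESeq2, 210 with DESeq2's size factors, 1135 with upper-quartile factors and 237 with library totals.

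Alternatives added after seeing the data gave 677 calls for 22 nt alone and 1263 for 21 nt alone; 1343 (21-22 nt) and 135 (24 nt) with the Col-0 libraries counted as 1 sample; and 353 and 189 at a mean of at least 100 CPM. Of calls at 24 nt, 36.8% were higher with TMM factors and 22.5% with library totals. The 21-22 nt log2 fold change of DXO1 ran from -1.17 without dxo1 replicate 1, where its direction reversed, to 7.68 without dxo1 replicate 2; no other call on a transcript named by the rule reversed under the alternatives run for it, nor did the 21-22 nt calls on those named after their values were seen. A choice of 1 model per gene was not run, since each table holds only 1. Depth limits dxo1 replicate 2 most: a floor of 3 counts there equals 88.1 CPM at 21-22 nt and 49.7 CPM at 24 nt before TMM factors. With its TMM factor, as in the levels above, 3 counts of 21-22 nt equal 67.4 CPM there. Transcripts near those levels cannot be shown to differ from the floor.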

Other observations

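Locus identifiers that the annotation table does not list had these counts at 21-22 nt: 8 of 67 tested were higher in dxo1 and 26 lower, with a median log2 fold change of -0.62, against 33.1 and 17.8% and a median of 0.07 for all transcripts tested. At 24 nt 5 of 96 were higher (5.21%, against 6.6% of all) and 15 lower (15.6%, against 11.3% of all). What these loci are was not analysed here.

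Of the genes next to DXO1 in the annotation's order, some also had more 21-22 nt counts in dxo1 replicate 1. CKB2, the next gene, had 54 and 0 counts in dxo1 and 0 and 3 in Col-0, too few to test. AT4G17616, on the other side, had 19 and 0 in dxo1 and 0 and 4 in Col-0, also too few. AT4G17670, 4 genes along, had 165 and 2 in dxo1 and 1 and 1 in Col-0 and passed as higher (log2 fold change 6.05, adjusted p = 7.79e-05, edgeR). KAN3, 7 genes along, had 21 and 1 in dxo1 and 1 and 0 in Col-0 and passed as higher (4.04), while CBL1, 2 genes before, had 127 and 7 in dxo1 and 61 and 163 in Col-0 and passed as lower (-0.84). The calls on AT4G17670, KAN3 and CBL1 end without dxo1 replicate 1. On DXO1 itself, reads of dxo1 replicate 1 were 70.4% 21 nt long and 30.4% antisense. These genes were looked at after the values of DXO1 were seen.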
